A study of Homo sapiens with 24 samples.

Results

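The mRNAs of 10 glycolysis enzymes (ALDOA, GAPDH, PGK1, PKM, ENO1, LDHA, LDHB, TPI1, PGAM1 and GPI) were followed through 6 lists of RNA windows bound by SNRNP200, CAPRIN or G3BP1 in HEK293 cells. Members were taken by name: every listed window whose gene annotation names 1 of the 10 genes was kept. The genes were 10 of 9792 named in the lists, and they held 462 distinct windows, or 825 when each list is counted separately. Windows are stretches of at most 100 bases of an annotated transcript feature, on the hg38 build.

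The series used eCLIP, in which RNA cross-linked to a protein is immunoprecipitated (IP), sequenced, and set against an input library of the same lysate. There were 24 libraries: 6 experiments, each with 2 IP and 2 input libraries. The experiments, as labelled, were SNRNP200 from cytoplasmic lysate of cells given 500 µM arsenic, SNRNP200 from cytoplasmic lysate of untreated cells, SNRNP200 from whole cells given 500 µM arsenic, SNRNP200 from untreated whole cells, CAPRIN from untreated cells, and G3BP1 from untreated cells. All groups shared the cell line, an established human embryonic kidney line, and the growth medium. The treatment protocol text names arsenic for every library, and the groups here follow the separate treatment label of each sample. The labels give neither the length of the arsenic exposure nor which CAPRIN protein was precipitated, the protocol field names 1 antibody number for every library, and nothing says that replicates came from separate cultures, so the p-values measure only the spread between these libraries.

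Glycolysis converts glucose to pyruvate in the cytosol, and lactate dehydrogenase converts pyruvate to lactate. Its enzyme mRNAs are among the abundant, efficiently translated mRNAs of proliferating cells. SNRNP200 (Brr2) is the helicase of the U5 small nuclear ribonucleoprotein that unwinds the U4/U6 duplex when the spliceosome is activated in the nucleus. G3BP1 and the CAPRIN proteins are cytoplasmic RNA-binding proteins that meet in stress granules, the condensates of untranslated mRNA that form when arsenite blocks translation initiation.

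In the order of the pathway, GPI isomerises glucose 6-phosphate, ALDOA splits fructose bisphosphate, TPI1 interconverts the triose phosphates, and GAPDH oxidises glyceraldehyde 3-phosphate. PGK1 then makes ATP, PGAM1 moves the phosphate, ENO1 makes phosphoenolpyruvate, and PKM turns that into pyruvate with a further ATP. LDHA and LDHB are the muscle-type and heart-type subunits of lactate dehydrogenase.

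The sequences of 4 stretches are examples of whole cell windows in introns and of cytoplasmic windows annotated near the 5' end of the gene. They were taken from the RefSeq table of promoter sequences (GRCh38.p14), which holds 250 bases before to 50 bases after each transcript start and matched all 10 genes, with 14 starts. The intron windows of GAPDH and TPI1 could be read there since both lie beside a second annotated start inside the gene. The first, in a GAPDH intron at chr12:6535142-6535221 on the plus strand, was in both whole cell lists. Capitals mark runs of at least 10 pyrimidines.
GAPDH intron: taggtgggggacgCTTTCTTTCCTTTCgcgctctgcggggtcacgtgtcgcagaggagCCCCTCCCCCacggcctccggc
The second, in a TPI1 intron at chr12:6867861-6867940 on the plus strand, was also in both whole cell lists. Capitals mark the letters GTAAG.
TPI1 intron: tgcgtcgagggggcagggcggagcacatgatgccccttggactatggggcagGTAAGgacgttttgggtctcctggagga
The third, at chr12:6867456-6867555 on the plus strand, is a TPI1 window annotated as start codon and was listed only in the cytoplasm with arsenic. Capitals mark the ATG with which it begins. Which TPI1 transcript starts translation at this ATG was not examined.
TPI1 start codon: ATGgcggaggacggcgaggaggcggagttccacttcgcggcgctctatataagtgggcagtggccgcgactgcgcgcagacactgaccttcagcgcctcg
The fourth holds the first 30 transcribed bases of ENO1, at chr1:8878657-8878686 on the minus strand. They lie in the 5' UTR window chr1:8878650-8878720, which was in the SNRNP200 cytoplasmic arsenic, CAPRIN and G3BP1 lists. The capital marks the first base of the transcript.
ENO1 start: Agtatctgtgggtacccggagcacggagat

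The GAPDH intron window held 2 such pyrimidine runs on the transcribed strand, the longer of 14 bases, and none on the other strand. At the same 80 positions of 35116 promoter sequences, 15.0% held such a run on the transcribed strand and 16% on the other. GTAAG occurred once in the TPI1 intron window on the transcribed strand and not on the other, and 4.02% of promoter sequences held it at the same 80 positions (3.79% on the other strand). These matches describe the letters only.

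Window counts differed between the lists by more than an order of magnitude, for the glycolysis mRNAs and for all genes. SNRNP200 had 65 glycolysis windows of 6773 in the cytoplasm with arsenic, and 12 of 4182 in the untreated cytoplasm. In whole cells SNRNP200 had 251 of 117690 with arsenic and 333 of 182066 without it. CAPRIN had 114 of 15831 and G3BP1 had 50 of 3023. Each count includes only windows that the authors' caller kept, with q under 0.2, so a window that is not listed was not necessarily free of reads.

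All 10 mRNAs were listed in every experiment but 1. The exception was SNRNP200 in the untreated cytoplasm, where 8 of 10 were listed and ALDOA and GAPDH had no window. The share of all 9792 genes with a window was 25.2% for SNRNP200 in the cytoplasm with arsenic, 18.6% in the untreated cytoplasm, 83.8% in whole cells with arsenic, 92.4% in untreated whole cells, 44.6% for CAPRIN and 12.6% for G3BP1. A window with arsenic and none without it in the cytoplasm was found for 2 of the 10 (ALDOA and GAPDH), against 13.9% of all genes. These mRNAs had more input reads per window than the lists at large, with a median of 30 against 14 in the cytoplasm with arsenic and 12 against 6 for G3BP1. The part of read depth in their listing was not tested.

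**Figure D1:**
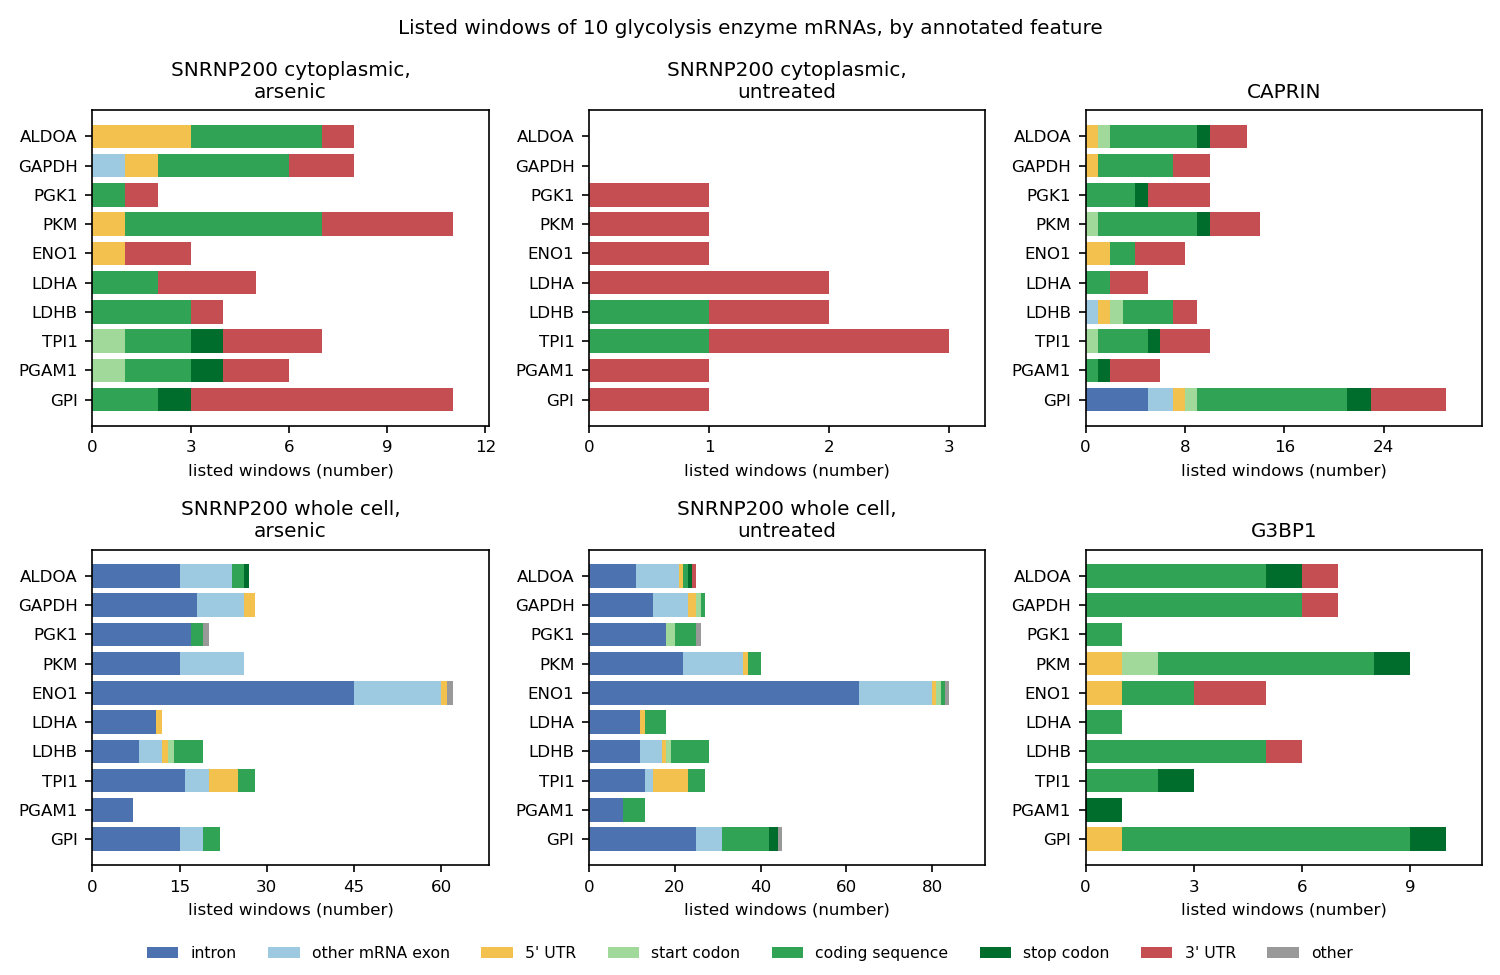
Number of listed windows of each glycolysis enzyme mRNA (y axis) in the 6 lists, with the annotated feature of the windows in colour and a separate x axis for each list. ENO1 had the most whole cell windows (62 with arsenic and 84 without), all of ALDOA's and GAPDH's cytoplasmic windows were from arsenic-treated cells, and GPI had the most CAPRIN windows of the 10 mRNAs, 29.

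SNRNP200 in whole cells lay mainly on introns of the glycolysis genes. Introns held 66.5% of their windows with arsenic (exact 95% binomial interval 60.3 to 72.3%) and 59.8% without it (54.3 to 65.1%), against 51.9% and 49.0% of all windows in the same lists. Intervals here and below cover counting error only, and windows of 1 gene are not independent. A further 21.9% with arsenic and 18.6% without it lay on exons of mRNA transcripts with no coding or UTR label, against 4.68% and 4.26% of all windows. Most of these stretches are introns of other transcripts of the gene: 94.0% of the glycolysis windows with arsenic and 85.6% without it were intronic in at least 1 annotated transcript, against 62.6% and 58.9% of all windows. Windows labelled as coding sequence made up 5.98% with arsenic and 13.5% without, against 35.7% and 38.7% of all windows.

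The cytoplasmic lists had no glycolysis window labelled as intron. Windows that are intronic in at least 1 transcript were 9 of 65 with arsenic (13.8%, against 12.3% of all windows) and 0 of 12 untreated (against 9.71%). With arsenic, 26 of 65 windows lay on coding sequence and 27 on 3' UTRs, which is 40.0% and 41.5%, against 25.1% and 45.5% of all windows in that list. In the untreated cytoplasm 10 of 12 lay on 3' UTRs, or 83.3% (interval 51.6 to 97.9%), against 67.6% of all windows. In the 0 of 65 windows with arsenic the exact interval allows an intron share of up to 5.52%, and introns were 0.546% of all windows there. Introns were 1.08% of all windows in the untreated cytoplasm, so both cytoplasmic lists as a whole held few intron windows.

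Coding sequence held the largest share of both CAPRIN and G3BP1 windows on these mRNAs. For CAPRIN, 50 of 114 windows were on coding sequence (43.9%) and 38 on 3' UTRs (33.3%), close to the 43.5% and 34.8% of its whole list. For G3BP1, 36 of 50 were on coding sequence, or 72% (57.5 to 83.8%), and 5 on 3' UTRs, or 10.0% (3.33 to 21.8%), against 49.0% and 21.6% of its whole list. GPI supplied all 5 of CAPRIN's intron windows on the 10 genes.

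**Figure D2:**
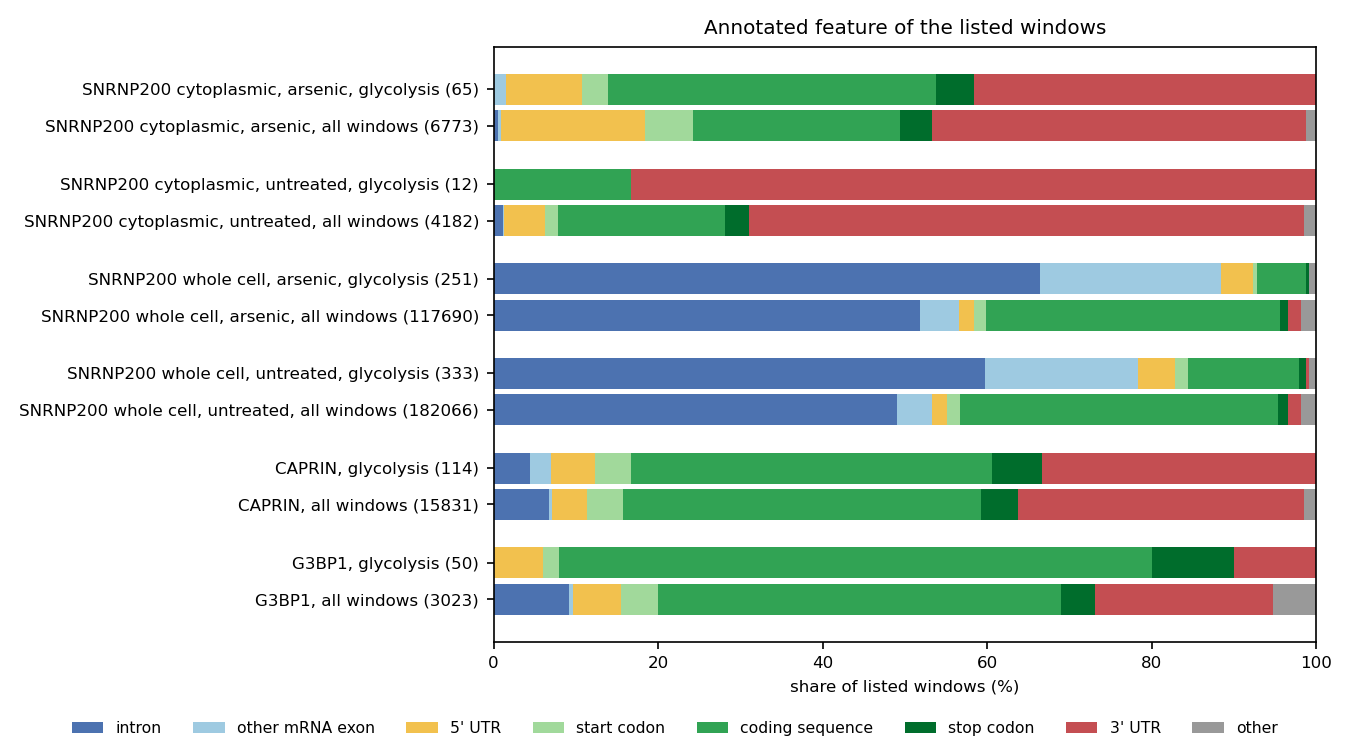
Share of listed windows by annotated feature (x axis, percent), for the 10 glycolysis enzyme mRNAs and for all windows of the same list (rows, with the number of windows). Blue intron shares fill the whole cell rows (66.5% and 59.8% for glycolysis) and are missing from the cytoplasmic glycolysis rows, where red 3' UTR shares reach 41.5% with arsenic and 83.3% without.

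GAPDH shows the contrast along 1 short gene. Of its 3855 bases, SNRNP200 windows covered 59.1% in whole cells with arsenic and 59.0% in untreated whole cells. In the cytoplasm with arsenic its 8 windows covered 14.1%, at the 5' end, in the last coding exons and in the 3' UTR. The whole cell window with the most IP reads, an mRNA exon with no coding or UTR label at chr12:6534862-6534954, had 649 IP and 21 input reads with arsenic, and 714 IP and 32 input reads without it. The cytoplasmic window with the most reads, coding sequence at chr12:6537666-6537748, had 372 IP and 133 input reads with arsenic. That window was also in the G3BP1 list with 136 IP and 40 input reads, the most of any GAPDH window there.

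ENO1 had the most whole cell windows, and TPI1 and GAPDH the most per length. In untreated whole cells ENO1 had 84 windows on 17687 bases (4.75 per kb), TPI1 27 on 3529 bases (7.65 per kb) and GAPDH 27 on 3855 bases (7.0 per kb). GPI, the longest gene with 42696 bases, had 45 (1.05 per kb). PKM, PGK1, LDHA, LDHB and PGAM1 lay between 1.04 and 1.79 per kb, and ALDOA had 4.07. With arsenic the order was similar: 7.93 per kb for TPI1, 7.26 for GAPDH, 4.40 for ALDOA and 3.51 for ENO1, and between 0.515 and 0.965 for the other 6. Some of ENO1's windows, 7 with arsenic and 9 without, also name the microRNA gene MIR6728, and their reads cannot be assigned to either.

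**Figure D3:**
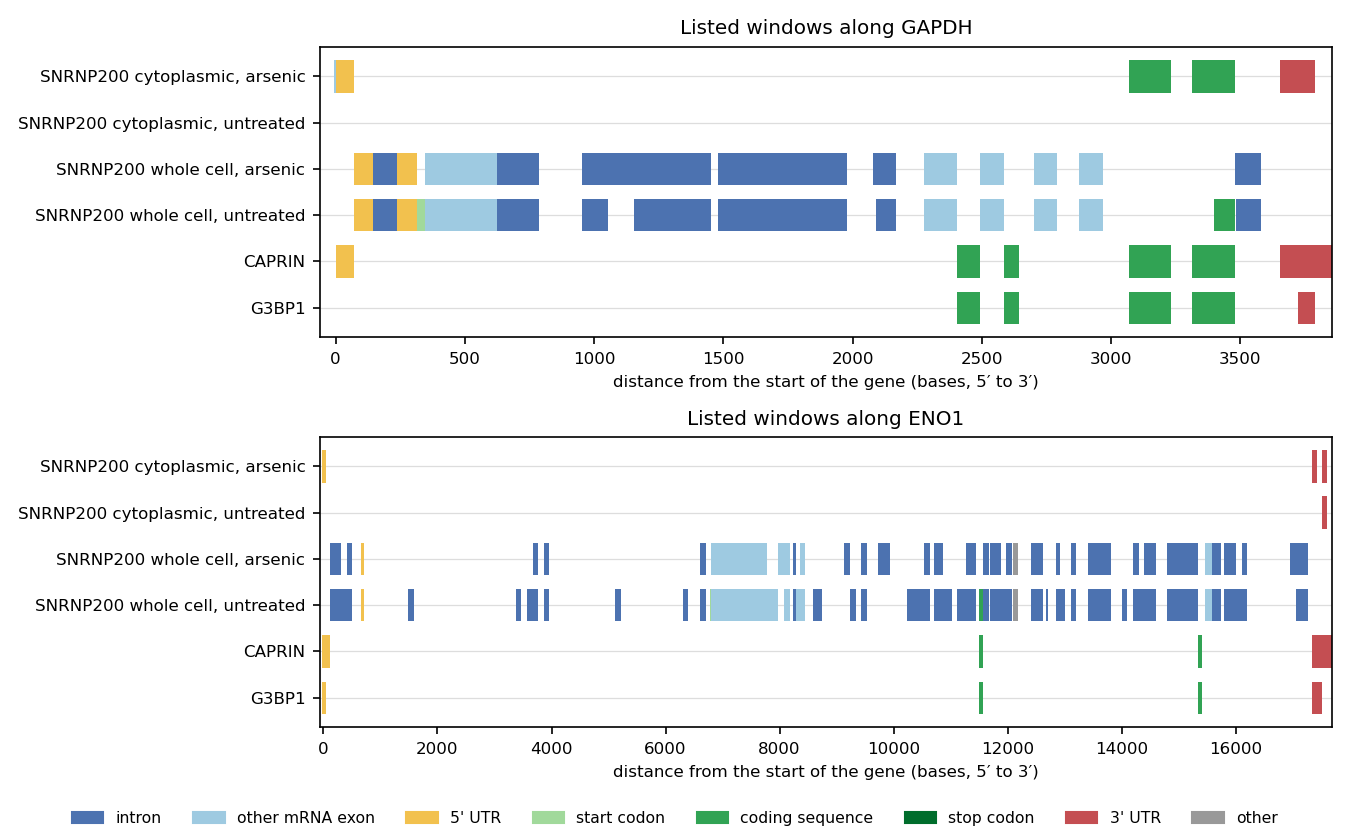
Listed windows along GAPDH and ENO1 by distance from the start of the gene (x axis, bases) in the 6 lists (rows), coloured by feature. Whole cell SNRNP200 windows fill the introns, whereas cytoplasmic SNRNP200, CAPRIN and G3BP1 windows sit on the ends of the genes and on coding exons. GAPDH had no window in the untreated cytoplasm.

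The most enriched whole cell windows were labelled as introns or unlabelled exons for 9 of the 10 genes, and as 5' UTR for TPI1 (5.32 with arsenic, 5.90 untreated). TPI1 had 5 whole cell windows labelled 5' UTR with arsenic and 8 untreated. Only 3 and 4 of all its windows there were intronic in no annotated transcript. Its 5' UTR label therefore does not exclude an intron of another transcript. For ENO1 the highest log2 enrichment of IP over input with arsenic was 7.09 (replicates 6.67 and 7.51) in an intron at chr1:8862946-8863045, with 175 IP reads and 1 input read. Without arsenic it was 7.0 (5.97 and 8.03) in an exon at chr1:8863174-8863234, with 193 IP and 2 input reads. For ALDOA it was 6.68 (6.27 and 7.09) with arsenic, in an intron stretch at chr16:30069390-30069398 with 76 IP reads and no input read. PKM reached 5.41 with arsenic and 6.32 without, and GPI 5.71 and 6.03, all in introns. Values of windows with 0 to 2 input reads rest on very little input.

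Arsenic left the whole cell enrichment of the 10 mRNAs without a change past the test. For each gene, the window with the most IP reads among those in both lists stood for the gene. LDHA, in an intron at chr11:18394642-18394741, had 2.40 and 2.54 with arsenic, against 3.35 and 4.57 untreated. GAPDH, at chr12:6534862-6534954, had 3.71 and 5.02 with arsenic, against 3.53 and 3.78 untreated. The LDHA ranges lie apart and the GAPDH ranges overlap. The differences were -1.49 (SE 0.87) and 0.71 (SE 0.87) on the log2 scale, and both had an adjusted p of 0.990 by limma. Leaving out 1 replicate value moved LDHA between -2.10 (without the lower untreated value) and -0.88 (without the higher untreated value), and GAPDH between 0.05 (without the higher arsenic value) and 1.37 (without the lower arsenic value).

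The other 8 differences, arsenic minus untreated, were between -1.03 (GPI, which was -2.0 without the higher and -0.07 without the lower arsenic value) and 0.15 (TPI1). Limma gave an adjusted p of 0.990 for each of the 10. The replicate ranges lay apart and lower with arsenic for 4 of 10 genes (ALDOA, LDHA, LDHB and PKM), against 15.1% of the 7531 genes tested, and apart and higher for 0 of 10, against 16.9%. At adjusted p under 0.05, limma called 0 of the 10 and 0 of 7531 genes (0%). At an unadjusted p under 0.05 it found 0 of the 10 and 288 of all genes.

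Over every window in both whole cell lists the direction was mixed. The 10 mRNAs shared 218 windows, which is 86.9% of those with arsenic and 65.5% of those without, against 77.4% and 50.1% of all windows. Their median difference was 0.07, against -0.01 for all 91143 shared windows. Ranges lay apart and higher in 32 windows, or apart and lower in 41, against 15.6% and 16.9% of all shared windows. By gene, the median over windows ran between -0.27 for LDHB and 0.35 for ALDOA and GAPDH. The most negative window was an ENO1 intron at -2.61 (3.33 with arsenic, 5.94 untreated) and the most positive an LDHB 5' UTR window at 2.95 (5.07 with arsenic, 2.12 untreated).

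In the cytoplasm the deposited enrichment was higher with arsenic in all 11 glycolysis windows found in both lists. PKM, in its 3' UTR at chr15:72199117-72199205, had 4.63 and 6.41 with arsenic, against 1.39 and 2.25 untreated. TPI1, in its 3' UTR at chr12:6870478-6870571, had 4.35 and 5.15 with arsenic, against 1.27 and 1.76 untreated. ENO1, in its 3' UTR at chr1:8861090-8861179, had 3.02 and 4.26 with arsenic, against 1.33 and 1.39 untreated. In each of these the lower arsenic replicate stood above the higher untreated one.

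LDHA and LDHB behaved alike in sign. LDHA's 3' UTR window at chr11:18407568-18407662 had 3.72 and 6.44 with arsenic, against 2.39 and 2.83 untreated. LDHB's 3' UTR window at chr12:21635442-21635541 had 3.89 and 5.95 with arsenic, against 2.79 and 2.90 untreated. GPI's 3' UTR window at chr19:34401324-34401422 had 3.22 and 3.78 with arsenic, against 1.60 and 1.81 untreated. PGK1 was the exception: its 3' UTR window at chrX:78126029-78126127 had 4.91 and 5.58 with arsenic, against 1.73 and 5.36 untreated, so the groups overlap.

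**Figure D4:**
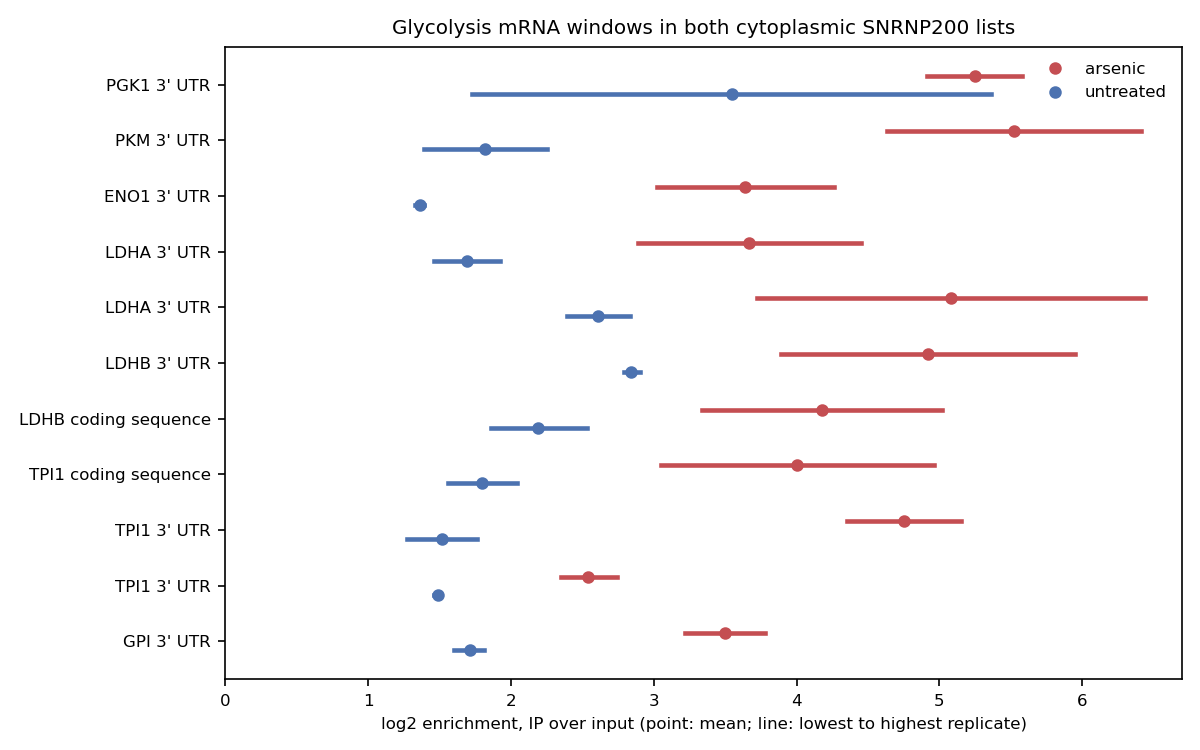
Log2 enrichment of IP over input (x axis) of the 11 glycolysis windows in both cytoplasmic SNRNP200 lists (rows), arsenic above untreated; points are means and lines run between the lower and the higher of 2 replicates. The lines lie apart in 10 windows and overlap in PGK1, where 1 untreated replicate was 5.36.

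The ranges lay apart and higher in 10 of 11 windows, against 71.4% of all 1065 windows in both cytoplasmic lists, and the median difference was 2.08, against 2.00 for all. With the shared window of most IP reads for each gene, which for LDHB is a coding window (3.34 and 5.02 with arsenic, 1.86 and 2.53 untreated) and for TPI1 a 3' UTR window at chr12:6870666-6870759 (2.35 and 2.74 with arsenic, 1.46 and 1.51 untreated), 6 of 7 genes lay apart and higher, against 71.3% of 686 genes. The differences were 3.70 (SE 1.18) for PKM, 2.47 (SE 1.24) for LDHA, 2.28 (SE 1.14) for ENO1, 1.98 (SE 1.17) for LDHB, 1.80 (SE 1.12) for GPI, 1.70 (SE 1.33) for PGK1 and 1.06 (SE 1.11) for TPI1. Limma's adjusted p was between 0.134 (PKM) and 0.453 (TPI1). At adjusted p under 0.05, it called 0 of the 7 and 0 of 686 genes (0%). At an unadjusted p under 0.05 it found 1 of the 7 (PKM) and 206 of all. When the variance was allowed to follow the level, limma called 115 genes, with ENO1, GPI, PKM and TPI1 among them.

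The median of all genes was itself 2.02 higher with arsenic. Relative to that median, PKM was 1.67 higher, LDHA 0.45 and ENO1 0.25, whereas LDHB (-0.04), GPI (-0.23), PGK1 (-0.32) and TPI1 (-0.97) were lower, with no adjusted p under 0.978 among them by limma. The reads before the authors' scaling go the other way. Over the same 11 windows the log2 ratio of IP to input reads was higher with arsenic in only 2 (PKM and 1 TPI1 window), and the median difference was -0.80, against -1.38 over 1040 shared windows of all genes. PKM had 159 IP and 22 input reads with arsenic, against 73 IP and 21 input reads untreated. PGK1 had 52 IP and 26 input reads with arsenic, against 44 IP and 7 input reads untreated.

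The deposited log2 enrichment exceeded the log2 read ratio by a median of 2.97 over all windows with arsenic, against -0.18 untreated, so the sign of the difference depends on the scaling within each list. Library totals are not used here. The part of the scaling in the result was not tested. GAPDH and ALDOA could not be compared, and their arsenic windows had mean enrichments between 2.29 and 3.83 for GAPDH, and between 3.06 and 5.40 for ALDOA. PGAM1 had 6 windows with arsenic and 1 untreated, none of them shared.

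Few glycolysis windows were in both a cytoplasmic and a whole cell list. With arsenic, 3 were in both, which is 4.62% of the cytoplasmic and 1.20% of the whole cell windows, against 13.0% and 0.749% of all windows. ALDOA's coding window of 21 bases at chr16:30067234-30067254 had 4.94 and 5.85 in the cytoplasm, against 2.24 and 3.38 in whole cells. TPI1's coding window at chr12:6869688-6869773 had 2.74 and 4.67 in the cytoplasm, against 2.40 and 2.57 in whole cells. Both lie apart and higher in the cytoplasm, as do 58.9% of 545 genes. The differences were 2.58 (SE 0.89) and 1.22 (SE 0.94), with adjusted p of 0.253 and 0.393 by limma. The median of all genes was 1.31, and relative to it ALDOA was 1.28 higher and TPI1 -0.08. The log2 read ratio was higher in the cytoplasm in 0 of the 3 shared windows, with a median difference of -1.04, against -1.27 for all. Limma called 0 of 545 genes (0%) at adjusted p under 0.05 and 97 at an unadjusted p under 0.05.

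Without arsenic 2 glycolysis windows were in both lists, and the deposited enrichment of both was lower in the cytoplasm. LDHB's coding window at chr12:21635642-21635709 had 1.86 and 2.53 in the cytoplasm, against 2.62 and 2.92 in whole cells. TPI1's coding window at chr12:6868926-6868987 had 1.56 and 2.04 in the cytoplasm, against 3.26 and 3.40 in whole cells. The read ratio before scaling was lower for TPI1 only: LDHB had 33 IP and 8 input reads in the cytoplasm, against 125 and 31 in whole cells, and TPI1 had 51 and 17, against 117 and 17. The median difference of the log2 read ratio was -0.58, against 0.85 for all shared windows. The replicate ranges of the enrichment lay apart and lower for 2 of 2, against 23.5% of 405 genes. The differences were -0.58 (SE 0.55) and -1.53 (SE 0.53), with adjusted p of 0.619 and 0.262 by limma, which called 0 of 405 genes (0%) and had 66 at an unadjusted p under 0.05. Among windows with at least 20 IP and 10 input reads in each list, TPI1's adjusted p by limma was 0.0192, and limma called 18 genes.

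That TPI1 window was the 1 glycolysis window in all 4 SNRNP200 lists. In the cytoplasm it had 3.05 and 4.96 with arsenic, against 1.56 and 2.04 untreated. In whole cells it had 1.59 and 3.32 with arsenic, against 3.26 and 3.40 untreated. The arsenic difference was 3.08 larger in the cytoplasm than in whole cells (SE 1.49, unadjusted p = 0.0398, adjusted p = 0.147 by limma). The interaction called 0 of 70 genes (0%) at adjusted p under 0.05 and had 22 at an unadjusted p under 0.05, and the median interaction of the 70 genes was 2.52. The windows came from lists scaled apart, so this value carries the same dependence on scaling as above.

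SNRNP200's cytoplasmic windows on the glycolysis mRNAs were mostly CAPRIN windows too. Of the 65 cytoplasmic arsenic windows 50 were also CAPRIN windows, which is 76.9% of the SNRNP200 and 43.9% of the CAPRIN windows, against 35.4% and 15.2% of all windows. Of the 12 untreated cytoplasmic windows 11 were CAPRIN windows (91.7% and 9.65%, against 32.8% and 8.66% of all). Of the 251 whole cell arsenic windows 7 were (2.79% and 6.14%, against 2.19% and 16.3% of all).

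CAPRIN's most enriched window was in the 3' UTR for 9 of the 10 mRNAs and at the stop codon of ALDOA. ENO1's 3' UTR window at chr1:8861000-8861089 had 191 IP and 2 input reads and replicate enrichments of 7.28 and 7.35. The ENO1 window with the most reads, at chr1:8861270-8861359, had 417 IP and 2 input reads, with 7.21 and 7.42. GAPDH's at chr12:6538307-6538374 had 78 IP reads and no input read, with 7.19 and 7.33. LDHB's at chr12:21635442-21635541 had 118 IP and 2 input reads, with 6.86 and 7.12. ALDOA's stop codon window at chr16:30070115-30070212 had 222 IP and 2 input reads, with 6.93 and 7.47. The highest windows of PKM, LDHA, TPI1, GPI, PGK1 and PGAM1 were also in 3' UTRs, with means between 5.47 and 6.64. GPI had the most CAPRIN windows of the 10 mRNAs, 29.

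G3BP1 windows on these mRNAs had lower enrichment than its list at large, with a median of 2.62 over 50 windows against 3.28. Only PGK1, TPI1 and LDHB had a window above 4: PGK1's coding window at chrX:78113744-78113821 had 3.99 and 5.21 on 16 IP reads and 1 input read, TPI1's stop codon window at chr12:6870284-6870383 had 3.19 and 6.37, and LDHB's 3' UTR window at chr12:21635442-21635541 had 3.19 and 5.10. PKM had 9 and GPI 10 windows, the most among the members. The G3BP1 file joins a set of 1254 windows with values of at most 2 replicates and a set of 1988 windows with up to 3, of which 654 have 3, although the labels give 2 replicates. Of the 50 glycolysis windows 2 are in the first set and 49 in the second. Comparisons of these windows with the whole G3BP1 list, here and above, are therefore not matched by set. The part of the set in the lower median was not tested.

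Of the 50 G3BP1 windows 46 were also CAPRIN windows, which is 40.4% of the CAPRIN and 92.0% of the G3BP1 windows, against 10.7% and 55.8% of all windows. In the first G3BP1 set, ALDOA's 3' UTR window at chr16:30070281-30070348 had 4.87 and 5.67 for CAPRIN, against 2.08 and 2.70 for G3BP1. TPI1's stop codon window had 4.05 and 4.60 for CAPRIN, against 3.19 and 6.37 for G3BP1. ALDOA lay apart and higher, as did 25.1% of 379 genes, and TPI1 overlapped. The difference was 2.88 (SE 0.57) for ALDOA, with an adjusted p of 0.0105 by limma, and -0.46 (SE 0.95) for TPI1, with 0.734. Limma called 113 of 379 genes (29.8%), 41 higher and 72 lower for CAPRIN. The median of all genes was -0.48, and relative to it TPI1 was 0.02. ALDOA's call did not hold without the higher CAPRIN replicate. All 7 ALDOA windows of the G3BP1 list also name CTD-2515O10.6. The same 7 windows are in the CAPRIN list, which names no second gene for them. Reads of these windows are therefore not certain to be ALDOA's in either list.

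With both G3BP1 sets, 1 window for each of the 10 mRNAs could be compared. ENO1's 3' UTR window had 7.21 and 7.42 for CAPRIN, against 1.77 and 2.24 for G3BP1. LDHB's coding window at chr12:21644022-21644108 had 5.42 and 5.51 for CAPRIN, against 1.91 and 2.93 for G3BP1. LDHA's coding window at chr11:18402840-18402926 had 5.21 and 6.10 for CAPRIN, against 3.22 and 3.53 for G3BP1. GAPDH's coding window at chr12:6537584-6537665 had 3.66 and 4.11 for CAPRIN, against 1.72 and 2.09 for G3BP1. All 4 lie apart, by most in ENO1.

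Enrichment was higher for CAPRIN in 6 of 10 by limma at adjusted p under 0.05, against 22.6% of 651 genes. These were ENO1 (5.31, SE 0.55, adjusted p = 7.9e-05 by limma), LDHB (3.04), ALDOA (2.88), LDHA (2.28), GAPDH (1.98) and PGAM1 (1.87). PKM (1.82, adjusted p = 0.0543 by limma), PGK1 (0.95), GPI (0.68) and TPI1 (-0.46) were not called. The median was 1.92, against 0.25 over all genes. These backgrounds join both G3BP1 sets, whereas only ALDOA and TPI1 of the members had a shared window in the first set. That set alone had a median of -0.48, with 41 of 379 genes called higher and 72 lower. No background of the second set alone was computed, so 22.6% and 0.25 are not matched to the 10 genes. Limma took the lowest and the highest replicate of each window as 2 values. In G3BP1 windows with 3 replicates the middle value was left out. Differences of such windows are therefore not exactly those of the mean enrichment, and their p-values rest on the 2 extremes. Over all 46 shared windows, ranges lay apart and higher in 37 and apart and lower in 1 (a GPI coding window). Of all 1688 shared windows, 46.8% and 18.8% did so, and the median was 1.43 against 0.59. The 1688 also join both sets, and the first held only 2 of the 46. In that set 141 of 551 shared windows lay apart and higher and 227 apart and lower, so this background is not matched either. Among the 46 glycolysis windows, 43 had an input read in both lists, and the log2 read ratio was higher for CAPRIN in 42 of them. The median difference of this ratio was 2.11, against 1.05 for all shared windows of both sets. This ratio is not corrected for library depth, so its sign between the 2 experiments depends on that depth. Input reads were few, with a median of 8 for CAPRIN and 12 for G3BP1.

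**Figure D5:**
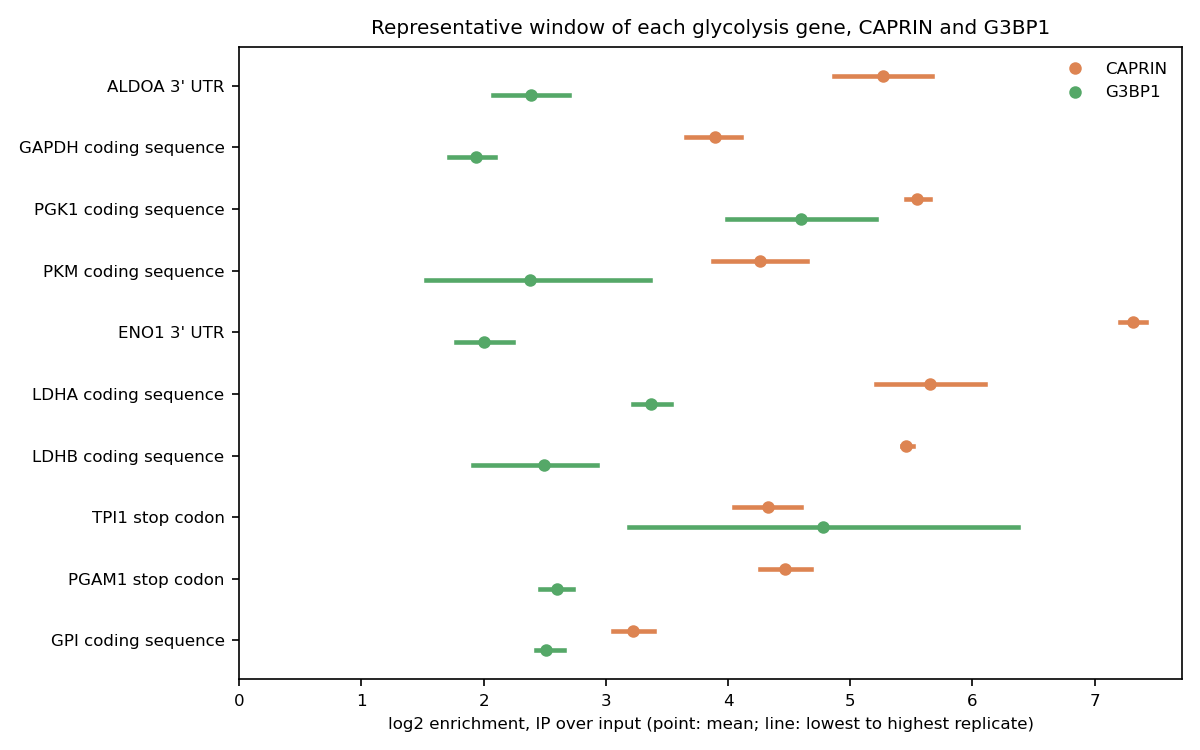
Log2 enrichment of IP over input (x axis) in 1 window for each of the 10 mRNAs (rows), CAPRIN above G3BP1; points are means and lines run between the lowest and the highest replicate (2 for CAPRIN, 2 or 3 for G3BP1). The lines overlap in TPI1 and lie apart, with CAPRIN higher, in the other 9.

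Of 462 distinct windows, 160 were in 1 list, 254 in 2, 37 in 3, 9 in 4 and 2 in 5. The largest combination was the whole cell pair, with 210 windows in both whole cell lists and no other. The 2 windows in 5 lists were the LDHB and TPI1 coding windows above. LDHB's coding window at chr12:21635642-21635709 had mean enrichments of 4.18 for cytoplasmic SNRNP200 with arsenic, 2.19 in the untreated cytoplasm, 2.77 in untreated whole cells, 4.33 for CAPRIN and 2.80 for G3BP1. LDHB also had 6 whole cell arsenic windows that are intronic in no annotated transcript, the most of the 10 genes, and GAPDH, PKM, ENO1 and PGAM1 had 0.

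Reads of processed pseudogenes can be mistaken for those of their parents. Windows named for GAPDHP35 (3 for CAPRIN) and LDHAP4 (2 for CAPRIN and 1 in untreated whole cells) were in the lists, and reads of these and of the GAPDH and LDHA exons may be shared. Values of GAPDH and LDHA exons are uncertain to that extent.

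Other genes of glucose metabolism were counted in the same lists. The shares of all genes given above count only genes with a window in at least 1 list. They are therefore a background only for the pathway genes that had a window in any list. Of 23 further glycolysis enzymes and isoforms, 9 had a window in any list, 1 in the cytoplasm with arsenic, 2 in the untreated cytoplasm, 9 in whole cells with arsenic, 8 in untreated whole cells, 6 for CAPRIN and 1 for G3BP1. HK2, the inducible hexokinase, had 1 cytoplasmic window with arsenic and 3 untreated, 48 whole cell windows with arsenic and 32 untreated, 5 for CAPRIN and 1 for G3BP1. PFKL, the liver-type phosphofructokinase subunit, had none in the cytoplasm, 35 in whole cells with arsenic, 82 untreated and 10 for CAPRIN.

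Of the 22 genes of pyruvate dehydrogenase and the citric acid cycle, all 22 were listed, 9 in the cytoplasm with arsenic and 1 in the untreated cytoplasm. MDH2, mitochondrial malate dehydrogenase, had 8 cytoplasmic windows with arsenic and 0 untreated, 13 for CAPRIN and 7 for G3BP1. All 7 pentose phosphate genes had a window in any list, 4 in the cytoplasm with arsenic and 2 untreated. TKT, transketolase, had 5 cytoplasmic windows with arsenic and 1 untreated. Of 10 transporters 5 had a window in any list, and 2 were listed in the cytoplasm in each condition. BSG, the chaperone of the lactate transporters, had 15 cytoplasmic windows with arsenic and 1 untreated. SLC16A1, a lactate transporter, had 11 and 9. Of 13 regulators 8 had a window in any list, 4 in the cytoplasm with arsenic and 2 untreated. With arsenic and untreated, PFKFB3 had 1 and 3 cytoplasmic windows, HIF1A 1 and 2, and PDK2 1 and 0. PGAM5, a mitochondrial phosphatase named for its homology to PGAM1, had 10 with arsenic and 0 untreated.

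None of these pathway genes passed limma at adjusted p under 0.05 in the 4 SNRNP200 comparisons in which they had a shared window, nor did any other gene tested there. BSG's 3' UTR window in the cytoplasm had 4.80 and 6.40 with arsenic, against 1.44 and 1.72 untreated, a difference of 4.02 (SE 1.16, adjusted p = 0.133 by limma). ENO2, the neuronal enolase, had 6.27 and 6.93 in whole cells with arsenic, against 3.38 and 4.90 untreated, a difference of 2.46 (SE 0.89, adjusted p = 0.990 by limma).

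The 5 protein-coding genes with window counts most like the median of the 10 members over the 6 lists were MTDH, C1QBP, EIF3I, RPS3 and PAICS. Likeness was the Euclidean distance of log2(windows + 1), which ran between 0.77 and 0.85 among 9032 genes compared. EIF3I, a subunit of translation initiation factor 3, had 5 windows in the cytoplasm with arsenic, 1 in the untreated cytoplasm, 28 in whole cells with arsenic, 36 in untreated whole cells, 15 for CAPRIN and 5 for G3BP1.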

How the data were processed

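HEK293 eCLIP libraries were compared as the 6 deposited window lists, with groups taken from the sample labels. Per the submitters' processing notes, fastp 0.11.5, STAR 2.7.6 and hg38 were used; no source used here names the window caller. The lists have no header, so columns were read by their values. The deposited lists hold read counts of IP and input per window, summed by the authors over replicates. They hold log2 enrichment of IP over input as the lowest, mean and highest replicate, as deposited by the authors, apparently relative to windows of like GC content. They also hold the GC fraction of each window as deposited, and the p-value and q-value as deposited, all with q under 0.2. Summed IP reads in the lists were between 186540 (G3BP1) and 8092831 (SNRNP200 in untreated whole cells), and window intervals are exact binomial at 95%. Library totals are not used here.

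Windows in 2 lists were compared by identical coordinates and strand. For each gene the shared window with the most IP reads was tested with limma 3.58.1 (R 4.3.3) on the lower and higher replicate value of each list, unpaired and uncentred, with Benjamini-Hochberg adjustment over all genes and a threshold of 0.05. These values are ordered within each window and are not fixed libraries. Where a G3BP1 window had 3 replicates, the middle value did not enter. The limma script was tested on simulated data. An exact permutation test of 2 against 2 cannot go below p = 0.333 and was not used. Tables and figures used Python 3.11.15, pandas 2.3.3, SciPy 1.17.1 and matplotlib 3.10.9.

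All 10 genes were named, with the most enriched and the most read window of each list. Pathway genes were named if listed in the cytoplasm or for CAPRIN or G3BP1, and the 5 most similar genes by distance. The GAPDH and TPI1 intron windows were printed because the sequence table covers them. The members and the pathway lists were chosen with earlier results of these data known. Alternatives were a variance trend, the mean of shared windows, a q limit of 0.05, at least 20 IP and 10 input reads, removal of the median difference, windows of 1 gene, all G3BP1 windows, and each replicate value left out.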

Additional observations from a re-analysis of the deposited data

How the results depend on the processing

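Values of single mRNAs mostly kept their direction and side of the threshold, with the exceptions given here; the cause was not tested. With the mean of all shared windows in place of 1, whole cell differences changed sign for ALDOA (0.26), PGK1 (0.23), ENO1 (0.10) and GPI (0.02). With the median difference removed, the cytoplasmic arsenic difference changed sign for PGK1 (-0.32), LDHB (-0.04), TPI1 (-0.97) and GPI (-0.23). The same step gave TPI1 -0.08 for cytoplasm against whole cells with arsenic, and 0.02 for CAPRIN against G3BP1. Leaving out 1 replicate value, the whole cell differences ran between -0.32 and 0.07 for PGK1, between -0.94 and 0.11 for ENO1, and between -0.68 and 0.34 for PGAM1. The cytoplasmic PGK1 difference ran between -0.12 and 3.52, and the CAPRIN minus G3BP1 difference of TPI1 between -2.05 and 1.13; without the lower G3BP1 value TPI1 was called (adjusted p = 0.0260 by limma), and without the higher CAPRIN value ALDOA was not (2.48).

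The number of genes called in the cytoplasm was 115 with a variance trend, 30 with the mean of shared windows and 40 with at least 20 IP and 10 input reads. The trend called PKM, ENO1, TPI1 and GPI, and the read minimum called PKM (adjusted p = 0.0473 by limma). That read minimum gave 18 genes, TPI1 (-1.53) among them, for untreated cytoplasm against whole cells, 1 for the same with arsenic, and 24 for CAPRIN against G3BP1. All G3BP1 windows together gave 231. Leaving out 1 replicate value, called genes ran between 0 and 4 for whole cells with and without arsenic, 0 and 403 for the cytoplasm, 0 and 121 for cytoplasm against whole cells with arsenic, 28 and 168 for CAPRIN against G3BP1, and 0 and 67 for the interaction. Without the lower cytoplasmic arsenic value PKM, ENO1, LDHA and LDHB were called, and so was the TPI1 interaction (4.03). The value left out was the lower or the higher of each window, not that of 1 library. Leaving out the lower value shifts its group upward in every window and leaves that group without spread. These calls therefore do not show the effect of losing 1 library. Requiring q under 0.05 left 3 of the 12 untreated cytoplasmic windows. The read minimum left 52 whole cell windows with arsenic, 90 untreated, 34 for CAPRIN and 32 for G3BP1. No paired analysis was possible because the lists carry no replicate numbers. The interaction with the median removed was not run. Low input depth limits whole cell and CAPRIN values most, with a median of 4 or 5 input reads a window.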
